A study of Mus musculus with 30 samples.

Results

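Of the 55335 genes counted, 9 are described here by name: Egr1, Egr2, Egr3, Egr4, Nr4a1, Nr4a2, Nr4a3, Arc and Npas4. All 9 were found in the count files. They belong to the genes that neurons switch on within minutes of strong synaptic input, without needing new protein first. They were picked by name, with earlier results of these data known. The data are RNA bound to tagged ribosomes in the nucleus accumbens, a forebrain region for reward and motivation, of female mice. The mice were either Control or had undergone the CWDS treatment (chronic witness defeat stress), that is, they had repeatedly seen another mouse being defeated. The tissue came from D1-Cre-RT mice, whose Cre driver directs a tagged ribosomal protein (RiboTag, RT) to medium spiny neurons with the D1 dopamine receptor, or from A2A-Cre-RT mice, whose driver marks the adenosine A2A receptor class that carries the D2 receptor. Libraries of the latter are called D2 here, after the sample names.

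Every group thus carried a Cre driver and the tag, Control included. Stressed mice were divided by social interaction score into Resilient and Susceptible. There were 6 groups of 5 libraries, which were D1 Control, D1 Resilient, D1 Susceptible, D2 Control, D2 Resilient and D2 Susceptible. Each library was a pool of 4 mice with similar interaction ratios, taken 24 h after the interaction test, so a library is an average over mice. No age is given in the labels. The design compares stressed with Control libraries within a class, Susceptible with Resilient libraries, the classes with each other, and the stress changes between the classes.

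The libraries held 28996168 to 65882152 gene counts. D1 Susceptible replicate 1 was unlike the rest, with 54.9% of its gene counts on the single gene Gm42418, and D2 Susceptible replicates 1 and 2 had only 15822 and 16525 genes with a count, against 19440 to 22375 elsewhere. The class labels were checked on dopamine and peptide genes. Pdyn, Drd2, Adora2a and Penk did not overlap between the 15 D1 and the 15 D2 libraries, while Drd1 and Tac1 did. The summed level of Drd1, Pdyn and Tac1 in D2 libraries reached 1640 CPM in D2 Resilient replicate 5 and 1080 CPM in D2 Control replicate 5, against 237 to 624 CPM in the other 13. Levels are given in CPM, the usual unit of counts scaled to sequencing depth, on library sizes adjusted by the trimmed mean of M-values (TMM).

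The EGR genes encode zinc finger transcription factors that bind GC-rich sites. The NR4A genes encode orphan nuclear receptors, which act without a known hormone and bind DNA alone or, for some of them, with retinoid X receptors. Arc encodes a cytoplasmic protein that promotes the removal of AMPA receptors from synapses, and Npas4 encodes a calcium-dependent transcription factor that shapes inhibitory synapses. Their promoters are known targets of CREB, which binds the cAMP response element, and of the serum response factor. In the striatum these genes are used as markers of recent dopamine and glutamate input to medium spiny neurons.

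The promoters of the genes are shown as a description, and their part in how the genes varied between libraries was not tested. RefSeq start sites on GRCm38.p6 gave a promoter for 6 of the 9 genes, of which 5 had a single start. Each line gives the 250 bases before the start, 5′ to 3′ on the gene's strand, at chr6:85513590-85513839 (minus) for Egr4, chr15:101266596-101266845 (plus) for Nr4a1, chr2:57124004-57124253 (minus) for Nr4a2, chr4:48045055-48045304 (plus) for Nr4a3 and chr19:4989972-4990221 (minus) for Npas4. Capitals mark TGACG, the half-site of the cAMP response element, or CGTCA, the same letters on the other strand.
Egr4: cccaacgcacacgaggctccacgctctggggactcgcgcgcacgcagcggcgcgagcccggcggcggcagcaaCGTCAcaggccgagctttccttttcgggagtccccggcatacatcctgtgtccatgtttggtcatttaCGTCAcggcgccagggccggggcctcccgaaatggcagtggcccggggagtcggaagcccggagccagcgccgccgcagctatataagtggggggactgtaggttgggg
Nr4a1: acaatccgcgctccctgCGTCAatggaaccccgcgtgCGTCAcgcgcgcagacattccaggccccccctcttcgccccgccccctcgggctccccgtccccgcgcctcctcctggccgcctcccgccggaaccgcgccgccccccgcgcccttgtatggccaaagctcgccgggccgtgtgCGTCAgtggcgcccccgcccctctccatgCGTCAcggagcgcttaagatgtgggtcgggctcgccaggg
Nr4a2: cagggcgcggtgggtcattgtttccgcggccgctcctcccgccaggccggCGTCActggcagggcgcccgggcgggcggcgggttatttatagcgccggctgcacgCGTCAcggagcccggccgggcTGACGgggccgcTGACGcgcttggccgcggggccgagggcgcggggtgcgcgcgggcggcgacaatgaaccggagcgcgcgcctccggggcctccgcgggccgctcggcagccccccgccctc
Nr4a3: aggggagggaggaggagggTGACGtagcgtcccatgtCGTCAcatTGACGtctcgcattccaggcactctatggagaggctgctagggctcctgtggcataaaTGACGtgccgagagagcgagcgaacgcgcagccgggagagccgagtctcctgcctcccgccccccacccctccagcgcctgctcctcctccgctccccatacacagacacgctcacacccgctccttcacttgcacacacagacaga
Npas4: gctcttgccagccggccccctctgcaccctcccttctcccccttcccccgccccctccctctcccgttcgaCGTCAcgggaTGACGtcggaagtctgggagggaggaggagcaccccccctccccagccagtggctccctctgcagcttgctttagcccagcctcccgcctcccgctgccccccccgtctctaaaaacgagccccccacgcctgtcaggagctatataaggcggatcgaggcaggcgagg
The half-site was present 4 times in each of the 3 NR4A promoters and 2 times in each of Egr4 and Npas4. Of 32817 promoter windows of the same length, 17.7% held it at least once and 3.9% held it 2 times or more. In Npas4 the pair lay close together, with first bases 179 and 169 bases before the start. In Nr4a3 all 4 lay in the distal part, between 231 and 147 bases before the start, whereas those of Nr4a1 lay at 233, 213, 69 and 40 bases. The full palindrome TGACGTCA, present in 1.55% of windows, the serum response CArG box (1.47%), the EGR site GCGTGGGCG (0.536%) and the NR4A site AAAGGTCA (1.34%) did not occur in these 5 windows. Egr2, the gene with several starts, is not shown, and the CArG box did occur in some of its windows. Such matches describe the letters only.

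Egr2 (ENSMUSG00000037868, chr10:67535475-67542188, GRCm38), the family member best known from hindbrain and myelinating cells, was listed at 0 in all 30 libraries. So were 24182 of the 55335 genes. Its value is left as listed, and whether this reflects the neurons or the counting was not tested. The other 8 genes passed the filter on low counts and were tested among 19368 genes.

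Compared per kilobase of exon, so that levels of different genes can be set side by side, the order over all 30 libraries was Egr1, Egr3, Nr4a1, Egr4, Arc, Nr4a2, Nr4a3 and Npas4. Egr1 (ENSMUSG00000038418, chr18:34859823-34864984) averaged 68.75 CPM per kilobase, a level above that of 96.4% of the genes tested. Egr3 (ENSMUSG00000033730, chr14:70077203-70082614) averaged 38.8 and lay above 93.2%.
Nr4a1 (ENSMUSG00000023034, chr15:101254269-101274795) averaged 23.5 CPM per kilobase. Egr4 (ENSMUSG00000071341, chr6:85511121-85513589) averaged 19.9, and Arc (ENSMUSG00000022602, chr15:74669083-74672570) 14.7. These 3 lay above 82.3% to 88.4% of the genes tested.
Nr4a2 (ENSMUSG00000026826, chr2:57106830-57124003) averaged 8.54 CPM per kilobase and Nr4a3 (ENSMUSG00000028341, chr4:48045153-48086447) 4.71. Npas4 (ENSMUSG00000045903, chr19:4984355-4990316) averaged 1.19 and lay above 41.6% of the genes, with 7789 counts in all libraries together against 499676 for Egr1. Its values rest on the fewest counts of the 8, and its log2 differences had the largest SE in every comparison.

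The genes also differed in how much they varied between libraries of one group. The median coefficient of variation within a group was 11.5% for Egr1 and 12.7% for Egr3, and 33.0% for Nr4a2 and 34.3% for Npas4. D1 Control replicate 5 held the highest of the 30 values for 7 of the 8 genes, all but Egr3. D2 Susceptible replicate 1 held the lowest for 3 of them.

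**Figure D1:**
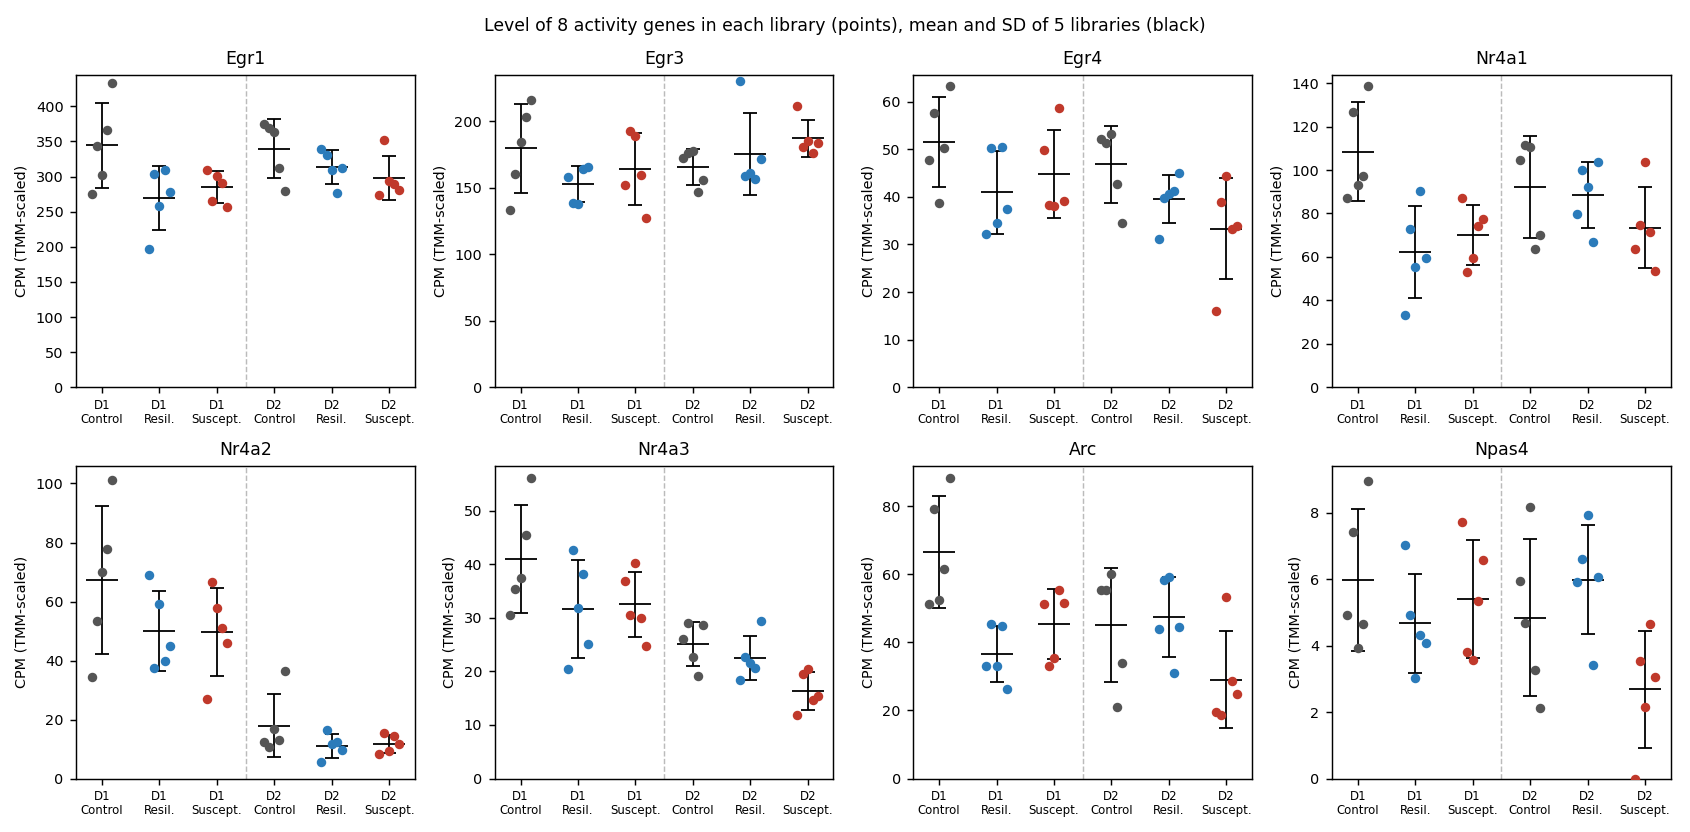
Level of each of the 8 detected genes in CPM (y axis, linear from 0) in every library (points) of the 6 groups (x axis), with the mean and SD of 5 libraries in black. The D1 groups of Nr4a2 sit at means of 49.7 to 67.3 CPM against 11.1 to 17.9 CPM in D2, and the Arc values of D1 Resilient all lie under those of D1 Control.

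The largest fitted differences of the 8 genes in the 9 pairwise comparisons were those of Nr4a2 between the neuron classes. Nr4a2 (Nurr1), the receptor best known for its role in midbrain dopamine neurons, was several times higher in D1 than in D2 libraries of every condition, and Nr4a3 (Nor1) was higher in D1 to a smaller degree. Of the 8 genes, 2 passed the test in Control libraries (adjusted p under 0.05, edgeR quasi-likelihood test), both as higher in D1. Of all genes, 8.3% passed there, 3.51% as higher and 4.8% as lower. In Resilient libraries 1 of 8 passed, again as higher, against 6.65% of all genes (2.75% higher, 3.9% lower). In Susceptible libraries 2 of 8 passed as higher, against 23.9% of all genes (10.5% higher, 13.4% lower). Fewer cells of a type and less RNA per cell cannot be told apart in such libraries.

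Nr4a2 measured 34.3, 53.3, 70.0, 77.6 and 101 CPM in D1 Control and 12.5, 10.6, 16.7, 13.1 and 36.5 CPM in D2 Control. All but 1 of the D1 values lay above all D2 values, and the D2 library at 36.5 CPM, replicate 5, stood apart from its group. The means were 67.3 ± 25.2 and 17.9 ± 10.6 CPM (SD, n = 5). On the log2 scale D1 exceeded D2 by 1.91 (SE 0.33, edgeR adjusted p = 0.000334).
In Resilient libraries Nr4a2 measured 69.1, 37.5, 59.0, 39.8 and 44.8 CPM in D1 and 5.49, 16.4, 11.7, 12.4 and 9.57 CPM in D2. The groups did not overlap, as was the case for 4.69% of all genes in that direction. On the log2 scale the excess in D1 was 2.17 (SE 0.34, edgeR adjusted p = 7.12e-05).
In Susceptible libraries it measured 26.8, 66.6, 57.9, 51.1 and 46.1 CPM in D1 and 8.48, 15.3, 9.32, 14.4 and 11.6 CPM in D2, again without overlap. Here the excess was 2.08 (SE 0.34, edgeR adjusted p = 8.06e-05). Over all conditions 13 of the 15 D1 libraries lay above the highest D2 library.

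Nr4a3 measured 30.4, 35.3, 37.4, 45.5 and 56.1 CPM in D1 Control and 26.1, 29.1, 22.6, 19.2 and 28.6 CPM in D2 Control. The groups did not overlap, as for 5.62% of all genes in that direction. The excess in D1 was 0.70 on the log2 scale (SE 0.19, edgeR adjusted p = 0.0149), and it was 0.58 (adjusted p = 0.0689) without D1 Control replicate 5 and 0.63 (adjusted p = 0.0546) without D2 Control replicate 4, so either library ended the call.
In Susceptible libraries Nr4a3 measured 36.8, 30.5, 40.3, 30.04 and 24.8 CPM in D1 and 11.9, 19.4, 20.5, 14.6 and 15.4 CPM in D2, without overlap (4.8% of all genes). The excess there was 0.99 (SE 0.19, edgeR adjusted p = 0.000427), and it was 0.97 (adjusted p = 0.00468) without D2 Susceptible replicates 1 and 2. In Resilient libraries the difference was 0.49 (SE 0.19, adjusted p = 0.141), and it passed without D1 Resilient replicate 1 (0.63, adjusted p = 0.0354) or without D2 Resilient replicate 5 (0.62, adjusted p = 0.0458).

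The third member, Nr4a1 (Nur77), did not share this pattern. It ranged from 33.2 to 139 CPM with a median of 77.3 in the 15 D1 libraries and from 53.6 to 112 CPM with a median of 79.6 in the 15 D2 libraries. In Resilient libraries its D1 minus D2 value was -0.51 on the log2 scale (SE 0.21, adjusted p = 0.207), which was -0.33 (adjusted p = 0.566) without D1 Resilient replicate 1 and had an adjusted p of 0.0254 under limma's voom with library quality weights. For Nr4a1 in Control and Susceptible libraries the log2 differences were 0.24 and -0.07.
Arc, Egr4 and Npas4 were above the D2 mean in all 5 D1 Susceptible libraries and passed in none of the class comparisons. The log2 difference of Arc in Susceptible libraries was 0.64 (SE 0.28, adjusted p = 0.0942), that of Egr4 0.43 (SE 0.19, adjusted p = 0.105) and that of Npas4 0.99 (SE 0.53, adjusted p = 0.175). Without D2 Susceptible replicate 3 Arc and Egr4 were at 1.00 (adjusted p = 0.00493) and 0.57 (adjusted p = 0.0287), and without replicates 1 and 2 at 0.37 and 0.29. Without replicate 1 alone Egr4 was at 0.27 (adjusted p = 0.25). In Control libraries Arc had a difference of 0.56 (SE 0.28, adjusted p = 0.255), and in Control and Resilient libraries the values of Egr4 and Npas4 and the Resilient value of Arc ran from -0.38 to 0.30. Egr1 and Egr3 did not pass the test in any class comparison, with log2 differences from -0.22 to 0.12 and adjusted p from 0.259 to 0.964.

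Markers of other cells moved with the classes too. The summed level of 5 interneuron genes (Pvalb, Sst, Npy, Chat and Slc5a7) was 252 to 422 CPM in D1 libraries and 61.4 to 248 CPM in D2, and 5 endothelial genes summed to 10.9 to 34.1 CPM in D1 and 49.4 to 317 CPM in D2. The D2 Control library with the high Nr4a2 value also had the highest interneuron sum among the D2 libraries, 248 CPM, and 1080 CPM of the D1 markers. D2 Resilient replicate 5, with 1640 CPM of D1 markers and an interneuron sum of 171 CPM, had 9.57 CPM of Nr4a2. The part of these cells in the class difference of Nr4a2 and Nr4a3 was not tested.

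In D1 libraries all 8 genes had lower fitted levels after stress than in Control, and none passed the test across all genes. This was so in Resilient libraries, where the log2 changes ran from -0.86 for Arc to -0.23 for Egr3 with a median of -0.36, against -0.01 over all genes, and in Susceptible libraries, where they ran from -0.63 for Nr4a1 to -0.13 for Egr3 with a median of -0.31. A negative change was found for 52.3% of all genes in either comparison. Each adjusted p was 1, and 0% of all genes were called. At an unadjusted p under 0.05 there were 3 of the 8 in Resilient (Arc, Nr4a1 and Egr1), where 2.6% of all genes had one and 1.51% had one as lower. In Susceptible there were 2 of the 8 (Nr4a1 and Egr1), where 2.4% had one and 0.991% as lower, and Egr1 was no longer among them without D1 Control replicate 5 (-0.18, unadjusted p = 0.132). The same 5 Control libraries enter both comparisons, so the values below are set side by side and are not independent.

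Arc measured 51.3, 79.1, 52.4, 61.4 and 88.1 CPM in D1 Control, 33.0, 45.3, 33.0, 44.8 and 26.4 CPM in D1 Resilient, and 51.2, 33.0, 35.4, 55.4 and 51.6 CPM in D1 Susceptible. All 5 Resilient values lay under all 5 Control values, a separation that 0.651% of all genes showed in that direction, and 3 of the 5 Susceptible values did. The means were 66.5 ± 16.4 CPM in Control, 36.5 ± 8.26 in Resilient and 45.3 ± 10.3 in Susceptible (SD, n = 5).
The log2 change of Arc was -0.86 (SE 0.28, unadjusted p = 0.00424, adjusted p = 1 by edgeR) in Resilient and -0.56 (SE 0.28, unadjusted p = 0.0546, adjusted p = 1) in Susceptible. With limma's voom and library quality weights, the Resilient change was -0.85 and the adjusted p was 0.0131. The Susceptible change was -0.81 there, and it did not pass in any alternative fit.

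Nr4a1 measured 87.0, 127, 92.9, 97.3 and 139 CPM in D1 Control, 33.2, 73.0, 55.2, 90.3 and 59.4 CPM in D1 Resilient, and 87.2, 52.9, 59.7, 74.1 and 77.3 CPM in D1 Susceptible. In each stressed group 4 of 5 libraries lay under the lowest Control library and the remaining one was just above it. The means were 108 ± 22.8, 62.2 ± 21.2 and 70.2 ± 13.8 CPM.
The log2 change of Nr4a1 was -0.80 (SE 0.21, unadjusted p = 0.000828, adjusted p = 1 by edgeR) in Resilient and -0.63 (SE 0.21, unadjusted p = 0.00645, adjusted p = 1) in Susceptible. Under voom the Resilient change had an adjusted p of 0.011.

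Among the EGR genes, Egr1 measured 276, 344, 302, 366 and 433 CPM in D1 Control, 197, 304, 258, 309.8 and 278 CPM in D1 Resilient, and 309.9, 265, 300.4, 291 and 256 CPM in D1 Susceptible. All 10 stressed libraries lay under the Control mean of 344 ± 61.0 CPM, and 2 of 5 in each group lay under the lowest Control library. The log2 changes were -0.35 (SE 0.12, unadjusted p = 0.00442) and -0.27 (SE 0.12, unadjusted p = 0.0234), both with an adjusted p of 1 by edgeR. Without D1 Control replicate 5 they were -0.26 and -0.18.
Egr3 averaged 179.7 ± 33.3 CPM in D1 Control, 153 ± 13.7 in Resilient and 164 ± 27.2 in Susceptible, with log2 changes of -0.23 (SE 0.12) and -0.13 (SE 0.12). Egr4 averaged 51.5 ± 9.43, 40.9 ± 8.75 and 44.8 ± 9.22 CPM, with changes of -0.33 (SE 0.19) and -0.20 (SE 0.19). For both genes the groups overlapped. Single libraries moved the Susceptible values. That of Egr3 was -0.05 without D1 Control replicate 5 or D1 Susceptible replicate 5, -0.08 without D1 Control replicate 4 and -0.21 without D1 Control replicate 1. That of Egr4 became -0.12 when D1 Control replicate 5 was left out and -0.32 when D1 Susceptible replicate 4 was.
Under voom, Egr1 and Egr3 in Resilient had adjusted p of 0.0113 and 0.0215, and 180 genes passed in all.

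The other members overlapped with Control. Nr4a2 had a log2 value of -0.43 (SE 0.32) in Resilient and -0.43 (SE 0.32) in Susceptible against Control, and it was -0.23 in both without D1 Control replicate 5, and -0.27 in Susceptible without D1 Susceptible replicate 1. For Nr4a3 the values were -0.37 (SE 0.19) and -0.34 (SE 0.19), and -0.23 and -0.19 without that Control library. Without D1 Resilient replicate 1 the Resilient value was -0.24. Npas4 averaged 5.97 ± 2.13, 4.67 ± 1.49 and 5.40 ± 1.78 CPM, with log2 values of -0.35 (SE 0.52) and -0.16 (SE 0.52). Leaving out single libraries moved them between -0.54 and -0.16 and between -0.30 and 0.03.

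**Figure D2:**
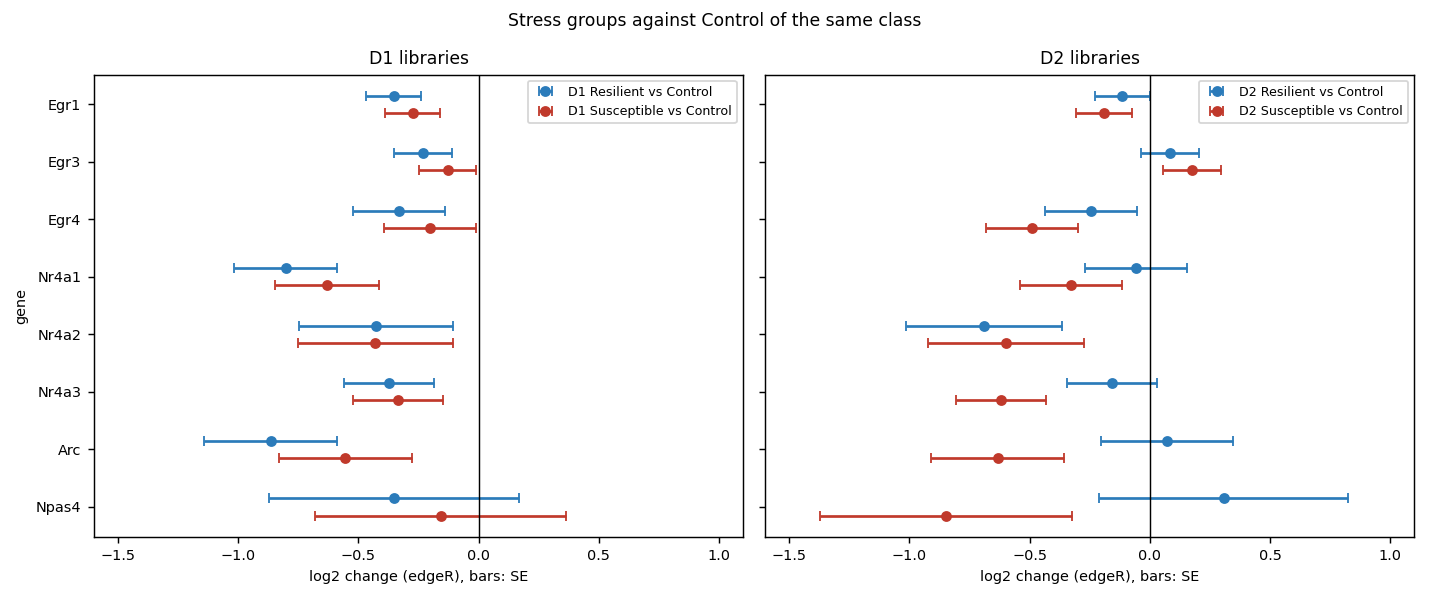
Log2 change (x axis) of each of the 8 genes (y axis) in Resilient (blue) and Susceptible (red) against Control of the same class, in D1 (left) and D2 (right) libraries, with bars for 1 SE. All 16 D1 points lie under 0, from -0.86 for Arc to -0.13 for Egr3, whereas the D2 Resilient points lie on both sides of 0.

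Between D1 Susceptible and D1 Resilient libraries none of the 8 genes differed at an unadjusted p under 0.05, against 3.49% of all genes, and each adjusted p was 1. The lowest unadjusted p was 0.274, for Arc (log2 0.31, SE 0.28), and the values of Egr1, Egr3, Egr4, Nr4a1, Nr4a2, Nr4a3 and Npas4 ran from 0.00 to 0.20. Markers of glia were lower in D1 Resilient than in D1 Control, with 4 of 5 astrocyte genes and 4 of 5 oligodendrocyte genes at an unadjusted p under 0.05. Their sums were 230 to 331 against 309 to 625 CPM for astrocytes, 335 to 493 against 439 to 890 CPM for oligodendrocytes, and 8.00 to 10.9 against 7.21 to 32.8 CPM for 5 microglial genes. The highest sums of all 3 lists in D1 Control were in replicate 1, which held the lowest Control value of Arc, Nr4a1, Nr4a2, Nr4a3, Egr1 and Egr3, and the part of glial RNA in the changes was not tested. Without it the Resilient log2 changes of Egr1 and Egr3 were -0.42 and -0.32, and without D1 Control replicate 5 they were -0.26 and -0.16. RNA of D2 neurons differed between D1 groups as well. The sum of 3 D2 markers was 1288 to 2174 CPM in D1 Control (median 1325), 1282 to 2684 CPM in D1 Resilient (median 1492) and 1076 to 2673 CPM in D1 Susceptible (median 2285). All 3 were positive in Susceptible against Control, with a median log2 change of 0.48 and 1 of 3 at an unadjusted p under 0.05, and their part in the changes was not tested.

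Of the 8 log2 changes against D2 Control, 5 were negative in Resilient libraries, against 51.4% over all genes, and 7 were negative in Susceptible libraries, against 54.2%, Egr3 being the exception. No member passed the test in any of the 3 D2 comparisons. The share of all genes called was 0% in Resilient against Control, 0.00516% in Susceptible against Control and 0.0516% in Susceptible against Resilient.

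In D2 Resilient against Control 1 of the 8 had an unadjusted p under 0.05, against 4.2% of all genes. This was Nr4a2, at 11.1 ± 3.99 against 17.9 ± 10.6 CPM and a log2 change of -0.69 (SE 0.33, unadjusted p = 0.0437, adjusted p = 1.00 by edgeR). Without D2 Control replicate 5, the library with 36.5 CPM, the value was -0.25. The changes of Egr1, Egr3, Egr4, Nr4a1, Nr4a3, Arc and Npas4 ran from -0.24 for Egr4 to 0.31 for Npas4.

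In D2 Susceptible against Control 3 of the 8 had an unadjusted p under 0.05, against 15.7% of all genes, and 7% of all genes had one as lower. These were Nr4a3, Egr4 and Arc. Nr4a3 in D2 Susceptible, at the 11.9 to 20.5 CPM given above, had 3 of 5 libraries under the lowest Control library, and the log2 change was -0.62 (SE 0.19, unadjusted p = 0.00249, adjusted p = 0.159 by edgeR). It was -0.59 (adjusted p = 0.724) without D2 Susceptible replicates 1 and 2 and -0.72 (adjusted p = 0.0409) without replicate 3.
Egr4 measured 52.1, 51.4, 53.2, 42.7 and 34.6 CPM in D2 Control and 16.0, 38.9, 44.3, 33.3 and 33.9 CPM in D2 Susceptible. The value of replicate 1 was far under the others, 3 of 5 lay under the lowest Control library, and the log2 change of -0.49 (SE 0.19, unadjusted p = 0.0154, adjusted p = 0.218) became -0.32 without that library.
Of the members with larger p in this comparison, Npas4 had a log2 change of -0.85 (SE 0.52, adjusted p = 0.433), which was -0.53 without D2 Susceptible replicate 1. Nr4a2 was at -0.60 (SE 0.33, adjusted p = 0.37) and at -0.16 without D2 Control replicate 5. Nr4a1 averaged 73.4 ± 18.7 against 92.2 ± 23.3 CPM, at -0.33 (SE 0.21, adjusted p = 0.456), and Egr1 297.7 ± 31.3 against 340 ± 42.1 CPM.

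Arc measured 55.2, 55.3, 59.9, 20.9 and 34.1 CPM in D2 Control, 43.9, 58.4, 59.2, 31.0 and 44.5 CPM in D2 Resilient, and 19.5, 18.6, 53.3, 28.8 and 24.9 CPM in D2 Susceptible. Of the Susceptible libraries only replicate 3 lay among the high values of the other groups, and 4 of 5 lay under the lowest Resilient library. D2 Control also held 2 low libraries, replicates 4 and 5.
The log2 change of Arc was -0.63 (SE 0.28, unadjusted p = 0.0299, adjusted p = 0.268 by edgeR) in Susceptible against Control. Against Resilient it was -0.71 (SE 0.28, unadjusted p = 0.0166, adjusted p = 0.162). These depended on single libraries. Without D2 Susceptible replicate 3 they were -0.98 (adjusted p = 0.0397) and -1.05 (adjusted p = 0.0164), and without replicates 1 and 2 they were -0.35 and -0.41, with adjusted p of 1.

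In D2 Susceptible against Resilient 3 of the 8 had an unadjusted p under 0.05, against 19.1% of all genes, and 8.26% had one as lower. Beside Arc these were Nr4a3 and Npas4. The log2 change of Nr4a3 was -0.46 (SE 0.19, unadjusted p = 0.0198, adjusted p = 0.174 by edgeR), with 3 of 5 Susceptible libraries under the lowest Resilient library. Npas4 measured 5.91, 6.59, 7.91, 3.43 and 6.07 CPM in D2 Resilient and 0, 3.55, 2.16, 4.64 and 3.04 CPM in D2 Susceptible. Its log2 change was -1.15 (SE 0.53, unadjusted p = 0.0366, adjusted p = 0.229), and it was -0.87 without replicates 1 and 2. The library at 0, replicate 1, had 15822 genes with a count, the fewest of all. The values of Egr1, Egr3, Egr4, Nr4a1 and Nr4a2 ran from -0.27 for Nr4a1 to 0.09.

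Egr3 was the one member with a higher mean in D2 Susceptible than in D2 Control. It measured 173, 176, 178, 147 and 156 CPM in D2 Control, 230.2, 159, 161, 157 and 172 CPM in D2 Resilient, and 212, 181, 185, 176 and 184 CPM in D2 Susceptible. All 5 Susceptible libraries lay above the Control mean of 166 ± 13.7 CPM and 4 of 5 above the highest Control library, but the comparison did not pass (log2 0.18, SE 0.12, unadjusted p = 0.152, adjusted p = 0.481 by edgeR). RNA of other cells differed between these D2 groups too. D1 marker sums were 237 to 529 CPM in Susceptible against 291 to 1080 CPM in Control, and interneuron sums 61.4 to 79.3 against 67.0 to 248 CPM. Oligodendrocyte sums were 742.5 to 1807 against 574.5 to 1236 CPM, and endothelial sums 172 to 317 against 132 to 265 CPM. D2 Susceptible replicate 1 had the highest of both, and replicate 2 had 1363 and 217 CPM. Astrocyte and microglial sums stayed within the Control range. The part of these cells in the D2 results was not tested.

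**Figure D3:**
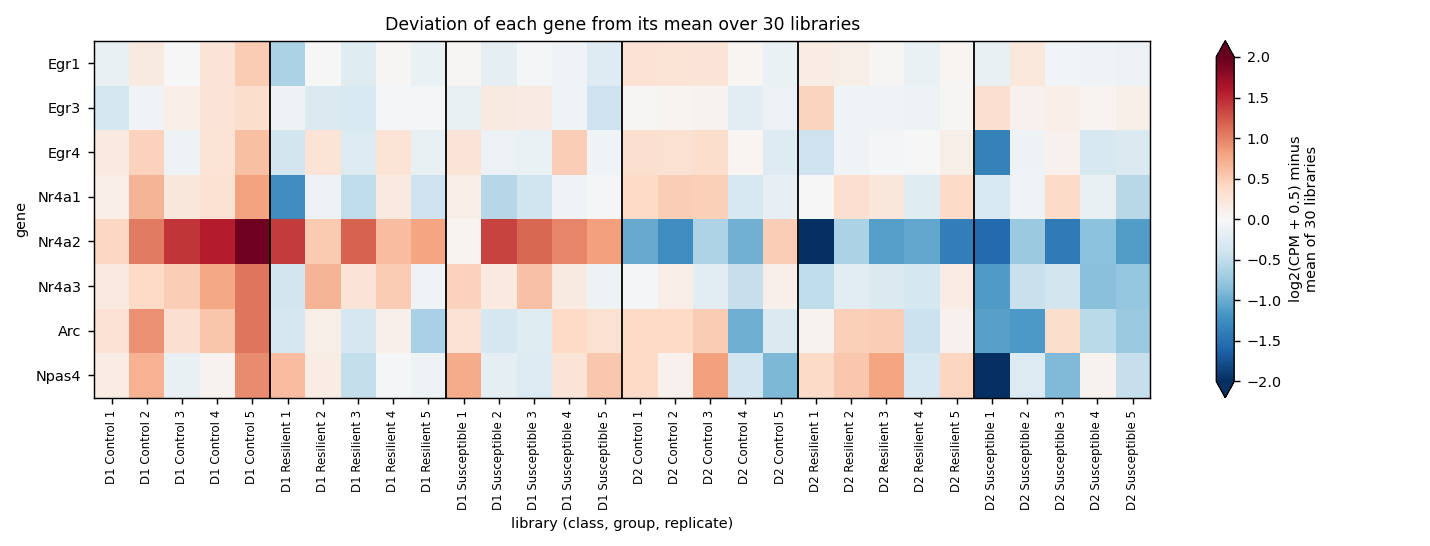
Deviation of log2(CPM + 0.5) of each of the 8 genes (rows) from its mean over 30 libraries (columns, in groups of 5), with colour limits at 2 and -2. The Nr4a2 row is red or pale in the D1 libraries and blue in all D2 libraries but Control replicate 5, and D1 Control replicate 5 is red in all rows, whereas D2 Susceptible replicate 1 is blue in all rows but Egr3.

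Whether stress changes differed between the classes was tested directly as the D1 change minus the D2 change. No member passed in any of the 3 tests, in each of which 0% of all genes were called. For Resilient against Control 2 of 8 had an unadjusted p under 0.05, against 4.99% of all genes. Arc differed by -0.94 (SE 0.39, unadjusted p = 0.0232, adjusted p = 0.929 by edgeR) and Nr4a1 by -0.74 (SE 0.30, unadjusted p = 0.0200, adjusted p = 0.929). The other 6 had values from -0.66 for Npas4 to 0.26 for Nr4a2. For Susceptible against Control there was none, against 7.79% of all genes, and the 8 values ran from -0.31 for Egr3 to 0.69 for Npas4. For Susceptible against Resilient there was 1, against 12.4%, which was Arc at 1.01 (SE 0.39, unadjusted p = 0.0150, adjusted p = 0.301), a value of 0.72 without D2 Susceptible replicates 1 and 2. The other 7 ran from -0.09 for Nr4a2 to 1.35 for Npas4, whose SE was 0.74. Arc was thus lowest in Resilient libraries of the D1 class and in Susceptible libraries of the D2 class, a pattern in the means that the adjusted test did not establish. Its D1 part was nearly absent under voom, where Arc in D1 Susceptible against Resilient was at 0.03 on the log2 scale.

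Some of the genes varied together between libraries of a group. Each value was taken as its deviation from the group mean on the log2 CPM scale and the 28 pairs of genes were correlated over 30 libraries, with libraries exchanged within groups in a permutation test of 100000 resamples, two-sided. After adjustment over the 28 pairs, 9 passed, all positive, by Pearson's r, and 12 by Spearman's rho, which included those 9. The median r was 0.252 and the range -0.280 to 0.756. Both genes of a pair come from the same libraries and share their depth and cell makeup. How often pairs of other genes pass the same test was not examined, so the count is not shown to be particular to these genes.

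Arc and Nr4a1 were the most alike, with r = 0.756 (permutation p = 2e-05, adjusted p = 0.00056) and rho = 0.797 (permutation p = 2e-05). Within the 15 D1 libraries r was 0.732 and within the 15 D2 libraries 0.837. Leaving out the 2 libraries farthest from the median of Nr4a1 gave r = 0.846. Egr1 and Nr4a1 followed with r = 0.739 (permutation p = 0.00024, adjusted p = 0.00336) and rho = 0.714 (permutation p = 0.00032), and with r = 0.644 without the 2 libraries farthest in Egr1. Egr1, Egr4, Nr4a1 and Nr4a3 passed in all 6 of their pairs with each other, at r between 0.559 and 0.739. Within classes these pairs ran from 0.536 to 0.875 in D1 and from 0.251 to 0.635 in D2. Egr1 and Nr4a3 had both the highest D1 value and the lowest D2 value, and r = 0.525 without the 2 libraries farthest in Egr1. Whether r differed between classes was not tested.
Egr4 and Npas4 had r = 0.724 (permutation p = 0.00609, adjusted p = 0.0189) and rho = 0.606 (permutation p = 0.00202), but r was 0.442 without the 2 farthest libraries, one of which was D2 Susceptible replicate 1. Within classes r was 0.450 in D1 and 0.851 in D2. Npas4 was counted at low levels, so its pairs carry more counting error than the others.

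A pair of members stood outside this group. Nr4a2 had a median r of -0.08 with the other 7 and a highest of 0.160 with Nr4a3, and Egr3 had a median of 0.03 and a highest of 0.405 with Egr1. None of their pairs passed, with adjusted p from 0.0959 to 0.898 by Pearson's r. Egr3 and Nr4a2 together had r = 0.677 in D1 and -0.675 in D2 libraries, a contrast picked after the values were seen and not tested.

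**Figure D4:**
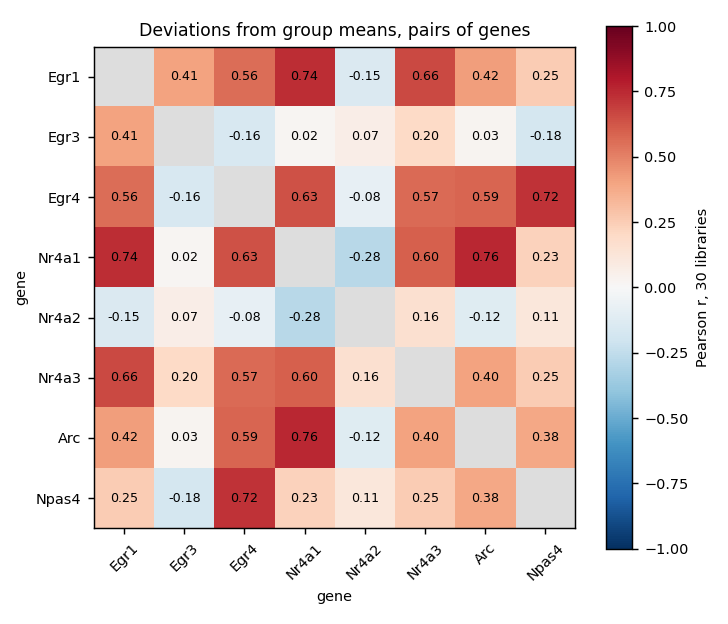
Pearson's r (colour and number) between deviations from group means of log2 CPM for each pair of the 8 genes (both axes), over 30 libraries. Arc and Nr4a1 reach 0.756, and the rows of Egr3 and Nr4a2 are pale, with no value above 0.405.

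The genes whose deviations were most like the mean standardised deviation of the 8 were, of 12396 compared, Slc25a25, a calcium-dependent mitochondrial carrier (r = 0.790, rho = 0.839), Dusp1, a phosphatase that turns off MAP kinases (r = 0.774), Fosb (r = 0.758), Prdm10 (r = 0.744) and P4ha1, a collagen hydroxylase subunit (r = 0.736), over 30 libraries. These are ranks and carry no test. Without D2 Susceptible replicate 1 the values were 0.735, 0.804, 0.694, 0.673 and 0.660. Of other early genes, Fos ranked 10 and Sik1 ranked 15, whereas Jun had an r of 0.00 and Homer1 of -0.24.

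The wider activity program was described with a list of 37 other immediate early genes, all of which were tested. In D1 Resilient against Control 34 of the 37 changes were negative, with a median of -0.27, and none was called. At an unadjusted p under 0.05 there were 9 lower and 1 higher, against 1.51% of all genes as lower. In D1 Susceptible 29 of 37 were negative, with a median of -0.21, 7 were lower and none higher at that level, against 0.991% as lower, and none was called.
The smallest p were those of Btg2, an antiproliferative early gene, at 6.65 ± 0.52 in D1 Resilient and 6.41 ± 0.66 in D1 Susceptible against 11.02 ± 1.83 CPM in Control (log2 -0.73, SE 0.20, adjusted p = 1, and -0.78, SE 0.20, adjusted p = 0.688). Klf10, a TGF-beta-inducible zinc finger factor, followed at -0.46 (SE 0.13) and -0.41 (SE 0.13), both with an adjusted p of 1. With only the D1 Control and Resilient libraries in the fit, Btg2 had an adjusted p of 0.0278.

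In the D2 class the list gave no call. In Susceptible against Control 21 were negative and 16 positive with a median of -0.03, the median of all genes, and none was called. At an unadjusted p under 0.05 there were 5 higher and 6 lower, against 8.68% and 7% of all genes. The smallest p belonged to Fosl2 (log2 -0.41, SE 0.13, adjusted p = 0.175) and Ier2 (-0.86, SE 0.29, adjusted p = 0.182). In Susceptible against Resilient 18 were negative and 19 positive, and none was called. At an unadjusted p under 0.05 there were 8 higher and 4 lower, against 10.8% and 8.26% of all genes. The smallest p were those of Tiparp, at -0.70 (SE 0.17, adjusted p = 0.0586), and Fos, at -0.97 (SE 0.27, adjusted p = 0.0736). Fos, the classic marker of recent activity, averaged 6.14 ± 1.56 CPM in D2 Susceptible and 12.1 ± 4.99 CPM in D2 Resilient. It passed in 3 of 18 alternative fits, with an adjusted p of 0.026 without D2 Susceptible replicate 3. In the other 15 it did not pass, and the highest adjusted p was 0.80. Its change was -0.89 without D2 Susceptible replicates 1 and 2. In D2 Resilient against Control the list had 26 negative values, with Klf2 at -0.71 (SE 0.33) and Trib1 at -0.39 (SE 0.19), both with an adjusted p of 1.00. Between D1 Susceptible and Resilient libraries none of the 37 was called, with Jund at -3.20 (SE 1.07, adjusted p = 0.856; -0.54 without D1 Resilient replicate 2) and Klf4 at 0.90 (SE 0.49, adjusted p = 1). None was called where the change in one class was set against that in the other. The smallest p were those of Btg2 for Resilient against Control (-0.87, adjusted p = 0.652) and for Susceptible against Control (-0.76, adjusted p = 0.637), and of Jund for Susceptible against Resilient (-6.50, adjusted p = 0.21), the last -3.74 without D2 Susceptible replicate 1 and -3.83 without D1 Resilient replicate 2.

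Between the classes, 5 of the 37 were called in Control libraries, 2 as higher in D1 and 3 as lower, where 3.51% and 4.8% of all genes were. Jun, the AP-1 partner of Fos, was lower in D1 at 56.8 ± 4.09 against 355 ± 89.5 CPM (log2 -2.64, SE 0.21, adjusted p = 2.23e-09), as were Klf2 (-3.17, SE 0.36) and Klf4 (-3.20, SE 0.50), both known from endothelium. Fos was higher in D1 at 19.7 ± 7.47 against 10.3 ± 1.81 CPM (0.93, SE 0.27, adjusted p = 0.0251), as was Klf10 (0.48, SE 0.13, adjusted p = 0.0161). The calls of Fos and Klf10 ended without D1 Control replicate 5, the library with the highest level of 7 of the 8 genes, at adjusted p of 0.118 and 0.0749. They also ended without D2 Control replicate 4, at 0.0841 and 0.0545. Klf2 and Klf4 moved with the endothelial markers given above, whose part was not tested. In Resilient libraries, where 3.9% of all genes were lower in D1 and 2.75% higher, 4 of the 37 were lower, Jun, Klf2, Klf4 and Rgs2, and 1 was higher, Jund at 3.49 (SE 1.07, adjusted p = 0.0485). The Jund value rested on 1 library and was 0.85 (adjusted p = 0.841) without D1 Resilient replicate 2. Its call ended in 7 of the 10 fits that left out 1 Resilient library, and that of Rgs2 (-0.32, SE 0.10, adjusted p = 0.0393) in 8 of the 10, at adjusted p of 0.0536 to 0.194. In Susceptible libraries 10 were lower, led by Jun, Klf2, Klf4, Arl4d and Pim1, and 3 were higher, where 13.4% of all genes were lower and 10.5% higher. The call of Pim1 (-1.37, SE 0.37) ended without D2 Susceptible replicates 1 and 2 (-0.38, adjusted p = 0.503).

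Of 12 slower effector genes of neuronal activity, none was called in 5 of the 6 stress comparisons. At an unadjusted p under 0.05, 4 were lower and 1 higher in D2 Susceptible against Control. Of all genes, 7% were lower and 8.68% higher at that level. In D2 Susceptible against Resilient Scg2, which encodes the vesicle protein secretogranin II, fell by 0.58 on the log2 scale (SE 0.11, adjusted p = 0.0435; 674 ± 111 against 1011 ± 182 CPM). This call of Scg2 ended in 9 of 18 alternative fits, 5 of which left out 1 library (D2 Resilient replicate 1, 2 or 5 or D2 Susceptible replicate 1 or 2). The change was -0.44 with an adjusted p of 0.484 without D2 Susceptible replicates 1 and 2, and the highest adjusted p was 0.701. In Control libraries 5 of the 12 were higher in D1 than in D2 and none lower, against 3.51% and 4.8% of all genes. These were Nrn1 (1.54, SE 0.24), Bdnf (1.32, SE 0.32), Pcsk1 (0.92, SE 0.17), Nptx1 (0.79, SE 0.16) and Scg2 (0.58, SE 0.11), with adjusted p up to 0.0075. In Resilient libraries 2 of the 12 were higher in D1, Nptx1 and Nrn1, against 2.75% of all genes, and in Susceptible libraries 7 were higher and 2 lower, against 10.5% and 13.4%. Bdnf, a growth factor that acts on synapses, averaged 15.2 ± 4.98 CPM in D1 and 6.07 ± 1.48 CPM in D2 Control.

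Of 20 upstream factors and kinases, among them Srf, Creb1, Crtc1, Mef2c and Camk4, none was called in the 6 stress comparisons or between classes in Control and Resilient libraries. In D1 Resilient against Control the median of their changes was 0.02. In D2 Susceptible it was 0.11 against Control and 0.10 against Resilient. At an unadjusted p under 0.05 by edgeR, 8 were higher and 1 lower in D2 Susceptible against Control. Of all genes, 8.68% were higher and 7% lower at that level. Against Resilient 5 were higher and 1 lower, where 10.8% and 8.26% of all genes were. In Susceptible libraries 3 were lower in D1 than in D2, Ppp3ca, Elk4 and Crebbp, and Rps6ka2 was higher. Of all genes, 13.4% were lower there and 10.5% higher. None of these 4 calls remained without D2 Susceptible replicates 1 and 2, with adjusted p of 0.232, 0.336, 0.916 and 0.0701.
Of 11 protein partners, such as the EGR co-repressors Nab1 and Nab2, the retinoid X receptors and Arnt2, which pairs with Npas4, none was called in the stress comparisons. Between classes Rxrg, a retinoid X receptor, was lower in D1 Control at 104 ± 11.2 against 128 ± 18.7 CPM (log2 -0.29, SE 0.09, adjusted p = 0.0388 by edgeR). That call ended in 7 of the 10 fits without 1 Control library, at adjusted p of 0.0551 to 0.201. Of all genes, 4.8% were lower in D1 in Control libraries. In Susceptible libraries Arnt2 (0.52, SE 0.11, adjusted p = 0.00087) and Rxra (0.36, SE 0.13) were higher in D1 and Sh3gl3 (-0.38, SE 0.10) was lower. Among all genes the shares there were 10.5% higher and 13.4% lower. The calls of Rxra and Sh3gl3 ended without D2 Susceptible replicates 1 and 2, at adjusted p of 0.329 and 0.194, and that of Rxra also in 6 of the 10 fits without 1 Susceptible library.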

How the data were processed

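Polyribosomes were immunoprecipitated with an HA antibody from 14 gauge punches of the nucleus accumbens, and SMART-Seq v4 libraries were made from 10 ng of RNA with an RNA integrity number above 8, per the labels' protocols. HISAT2, HTSeq and GRCm38 are named in the submitters' processing notes. For versions, annotation release and strand setting the answer is the same: not given in the sources used here. The deposited files hold raw counts per gene, made by the authors without normalization. The 5 summary lines of unassigned reads, 10.1% to 53.3% of reads, stayed out of library sizes. The series-wide table repeated these values for all 30 libraries. No 2 libraries of a group agreed within counting noise (chi-square per degree of freedom 13.7 or more in 60 pairs). Each library is a separate pool of mice.

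Symbols, coordinates (1-based) and exon lengths came from GENCODE M21 on GRCm38. No annotated gene overlaps a member. Genes were filtered by filterByExpr (minimum count 10, minimum total 15), which kept 19368, scaled by TMM, and then compared in edgeR 4.0.16 under R 4.3.3 (quasi-likelihood F test, robust, 1 model of 6 groups), with Benjamini-Hochberg adjustment over all genes tested in each of 12 comparisons and a threshold of 0.05. The script was tested on simulated data. SE is the size of the log2 change divided by the square root of F. The log2 CPM of the correlations used a prior count of 1. Alternatives were the groups compared only, the replicate number as a block, DESeq2 1.42.0 (size factors, Wald test), voom quality weights in limma 3.58.1, no filter, and fits without libraries. The 8 members with counts were named in every comparison, singly or within a range. Of the other lists, called genes were named, up to 5 per comparison, or else the 2 early genes of smallest p. The members and lists were chosen with earlier results of these data known.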

Additional observations from a re-analysis of the deposited data

Results flagged for a closer look

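In 4 of 48 groups of 5 libraries, 1 value lay far from the others (gap to the nearest value over the range above Dixon's critical value of 0.71), and chance gives this in about 1 of 20 groups. Nr4a2 in D2 Control replicate 5 was 36.5 CPM, and the next value was 16.7 CPM. Egr3 in D2 Resilient replicate 1 was 230.2 CPM against a next value of 172 CPM, and in D2 Susceptible replicate 1 it was 212 CPM against 185 CPM. Egr1 in D2 Susceptible replicate 2 was 352 CPM against 293 CPM. D2 Susceptible replicates 1 and 2 are also the libraries with the fewest genes counted.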

How the results depend on the processing

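The alternatives were run for the 12 counts of members called and for all 96 member changes (8 genes in 12 comparisons), besides the named genes of the other lists. Of 237 recomputed counts, 227 stayed at 0 or within 1.5 times the first value, 8 were higher and 2 lower. The first count was above 0 only between classes within a condition. There 14 of 16 recomputed counts stayed within that bound in Control, 13 of 17 in Resilient and 17 of 18 in Susceptible libraries. In D1 Resilient against Control the count rose from 0 to 4 under voom (Arc, Egr1, Egr3 and Nr4a1), where 180 of all genes passed. Leaving out single libraries gave 0 each time. In D2 Susceptible against Control and against Resilient it was 0, and leaving out single libraries gave 0 to 2 and 0 to 1, the higher values without D2 Susceptible replicate 3. Between classes, leaving out single libraries gave 1 to 2 in Control, 1 to 2 in Resilient and 2 to 4 in Susceptible libraries. In Resilient libraries voom gave 2 and the fit without 4 libraries (D2 Susceptible replicates 1 and 2, D1 Susceptible replicate 1 and D2 Resilient replicate 5) gave 2. The counts of the 3 differences between class changes stayed at 0. Apart from the 180 genes under voom, the numbers of all genes called in these fits are not given here. A higher count is therefore not shown to be particular to the members. Of the 96 member changes, 20 turned their sign in at least 1 alternative, none of them a called one, and the largest of these was Nr4a2 at 0.26, for Resilient against Control between classes. Of the changes in D1 libraries against Control, 1 turned, Npas4 in Susceptible, which ranged from -0.2995 to 0.03336 when single libraries were left out and was positive without D1 Control replicate 5. The cause of these shifts was not tested.

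Replicate numbers are shared by the groups, but same-numbered libraries did not deviate together (75 pairs, r from -0.143 to 0.0682, none above 0.1). With the replicate block the counts of members called were 2 in Control, 1 in Resilient and 2 in Susceptible libraries between classes and 0 elsewhere, as without it. Npas4 lay nearest to the limit set by depth, at a median of 4.66 CPM, where 3 counts in a library are 0.0430 to 0.304 CPM.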
